A study of Mus musculus with 6 samples.

Results

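The genes that hydroxylate, fold and trim procollagen were examined in cultured cardiac fibroblasts (CFs) of wild-type (WT) and CharmeKO mice. The group was defined by gene symbol as 10 named genes, and all 10 were found among the 19446 genes of the table, each as 1 row. The rule itself uses no measured value, although the group was proposed with earlier results of these data known. They are the alpha subunits of prolyl 4-hydroxylase (*P4ha1*, *P4ha2* and *P4ha3*), the lysyl hydroxylases (*Plod1*, *Plod2* and *Plod3*), the collagen chaperone HSP47 (*Serpinh1*), the procollagen N-proteinase *Adamts2*, the procollagen C-proteinase *Bmp1*, and the enhancer of the C-proteinase, *Pcolce*.

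Both groups held cells grown out of explanted cardiac tissue of 5-week-old mice and kept on fibronectin in serum-containing medium, with 3 libraries each. CharmeKO mice carry a polyadenylation signal that interrupts *Charme*, a gene for a long non-coding RNA, and are on a C57BL/6J background, as are the WT mice. The age of 5 weeks is that of the library titles, while the methods of the study give a range of ages around it for explant cultures. These methods describe atrial pieces pooled from littermates as the source of each explant culture, so a library need not stand for 1 animal. The study states independent primary isolations for its experiments in general, and the labels do not tie each library to one, so p-values are read as measuring the spread between these libraries. Native CFs were not analysed here.

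Collagen chains are modified in the endoplasmic reticulum while they are still being made. Prolyl 4-hydroxylases, enzymes that pair a catalytic alpha subunit with protein disulfide isomerase (*P4hb*), hydroxylate prolines that the triple helix needs in order to be stable at body temperature, and lysyl hydroxylases prepare lysines for sugar attachment and for crosslinking. HSP47 binds the folded helix and escorts it out of the endoplasmic reticulum, and after secretion the N- and C-propeptides are cut off so that fibrils can form. Fibroblasts are the main collagen producers of the heart, and *P4ha1*, *P4ha2* and *Plod2* are known targets of the hypoxia-inducible transcription factors.

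The libraries held 38330019 to 46797446 recovered reads. They were grouped by replicate number more than by genotype. Over all 15948 genes tested, 67.7% of the variance lay between the numbers and 10.6% between the genotypes. As there are more numbers than genotypes, random variation alone would also give the number a larger share than genotype. The residual, which random variation alone would on average make as large as the share of the number, took 21.7%. CUFF405, the 1 row without an Ensembl ID and so probably *Charme*, which the authors added to the annotation, had 5, 15 and 11 reads in WT 1 to 3 and 0, 6 and 3 reads in CharmeKO 1 to 3 (log2 fold change -1.91, SE 0.911, limma adjusted p = 0.9999). The 10 fibroblast markers listed were all measured, and their summed level was 1075132 to 2191842 normalised reads in WT and 1434868 to 1739825 in CharmeKO. Most of this sum is RNA of *Col1a1*, *Col1a2* and *Col3a1* (394739, 215275 and 215212 in WT 1), which are also among the substrates below. The log2 fold change was negative for 3 of these 10 markers and positive for 7, from -0.85 to 0.79. Of the 11 smooth muscle and pericyte markers, 0 passed the adjusted threshold with limma, with or without the replicate block. With DESeq2, 2 passed in at least 1 of the fits without and with that block, which called 0.0502% and 0.401% of all genes. The log2 fold change of these markers was negative in 11 of 11. In all 3 same-numbered pairs, 8 of 11 were lower in CharmeKO, as were 14% of all genes. The median difference of these markers was -0.18 for number 1, -2.19 for number 2 and -2.95 for number 3. Their sum was 32836 to 247009 in WT and 11484 to 133516 in CharmeKO. The study uses αSMA, the product of *Acta2* on this list, to measure conversion of CFs into myofibroblasts. *Acta2* need therefore not mark a separate cell type in these cultures. The sum of 9 macrophage and haematopoietic markers was 1926 to 8109 in WT and 1024 to 17431 in CharmeKO, highest in the library numbered 1 within each genotype, and *Ptprc* was at 0 reads in CharmeKO 3 and *Fcgr1* in WT 3. The mesothelial and epicardial sum (5 of 6 markers measured) was 1549 to 9878 in WT and 703 to 10044 in CharmeKO, with the libraries numbered 1 above the other 4. The endothelial sum (5 of 6) was 123 to 284 in WT and 40.9 to 350.0 in CharmeKO, with *Cdh5* at 0 reads in WT 2 and CharmeKO 3. The cardiomyocyte sum (3 of 7) was 136 to 589 and 158 to 794, with *Ryr2* at 0 reads in CharmeKO 2 and 3. The part of these cells in the results on collagen-modifying genes was not tested, and in bulk cultures fewer cells of a type cannot be told apart from less RNA per cell.

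The level of the 10 genes was considered first. Values are normalised reads, that is, reads of a gene divided by a size factor per library. To compare genes, these were divided by the length of each gene's merged exons in kilobases. Merged exons include those of all annotated transcripts, and which transcripts the cells made was not examined. Levels per kilobase, and the family shares taken from them below, are therefore approximate. On this scale *Serpinh1* stood at 34248 ± 7719 normalised reads per kilobase (mean ± SD over the 6 libraries), and its lowest library (28325) lay above the highest library of every other of the 10 genes. *Pcolce* (6435 ± 2181), *P4ha1* (5075 ± 888) and *Plod2* (4329 ± 1124) followed, and the ranges of neighbouring genes overlapped among them. *Plod3* (2004 ± 151), *Bmp1* (1869 ± 440.3) and *Adamts2* (1824 ± 477) came next, with ranges that overlapped each other, and *Plod3* was below *Plod2* in all 6 libraries. *P4ha2* (770.2 ± 281), *Plod1* (586 ± 172) and *P4ha3* (407 ± 242) were lowest and also overlapped with their neighbours. Relative to all genes tested, *Serpinh1* was at percentile 99.8 of the level per kilobase and *P4ha3* at percentile 72.5, with the others between percentiles 80.2 and 98.6.

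**Figure D1:**
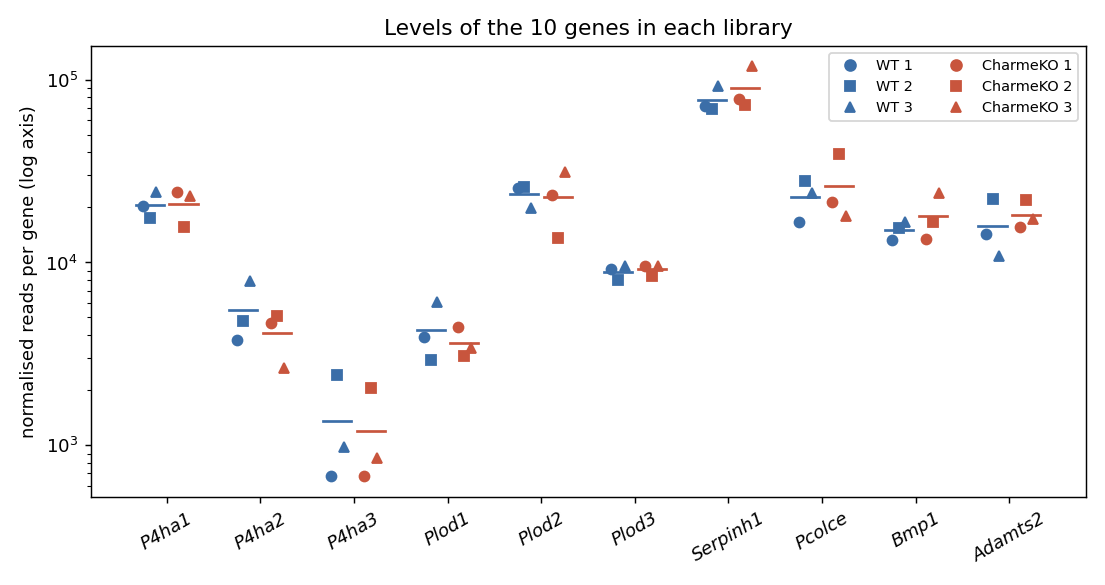
Normalised reads (log axis) of the 10 genes in the 3 WT and 3 CharmeKO libraries, with a horizontal bar at each group mean. *Serpinh1* lies highest, between 69199 and 118349, *P4ha3* lies lowest, and the WT and CharmeKO points overlap for each gene.

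The promoters of 5 hydroxylase genes are given because of a difference between these genes described further on. They differed in whether their level followed the summed level of a list of hypoxia-inducible genes across the libraries. Motif counts were not tested against that pattern. The windows run from 250 bases before to 50 bases after the RefSeq start on GRCm38.p6, 5′ to 3′ on the strand of the gene, and capitals mark ACGTG or GCGTG, the core of the hypoxia response element, on either strand.
P4ha1, chr10:59323046-59323345, plus strand: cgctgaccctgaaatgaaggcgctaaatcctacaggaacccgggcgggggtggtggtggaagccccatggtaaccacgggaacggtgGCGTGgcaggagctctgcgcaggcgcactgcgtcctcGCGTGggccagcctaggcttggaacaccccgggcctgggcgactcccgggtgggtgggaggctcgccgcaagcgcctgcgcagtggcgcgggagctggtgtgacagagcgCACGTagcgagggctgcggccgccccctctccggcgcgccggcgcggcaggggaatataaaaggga
Plod1, chr4:147936727-147937026, minus strand: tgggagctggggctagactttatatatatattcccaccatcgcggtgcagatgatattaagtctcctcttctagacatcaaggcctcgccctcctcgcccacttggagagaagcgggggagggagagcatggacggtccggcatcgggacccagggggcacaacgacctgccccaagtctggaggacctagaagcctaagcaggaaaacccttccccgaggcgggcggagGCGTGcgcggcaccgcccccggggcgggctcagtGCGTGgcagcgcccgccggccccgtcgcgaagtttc
Plod3, chr5:136986769-136987068, plus strand: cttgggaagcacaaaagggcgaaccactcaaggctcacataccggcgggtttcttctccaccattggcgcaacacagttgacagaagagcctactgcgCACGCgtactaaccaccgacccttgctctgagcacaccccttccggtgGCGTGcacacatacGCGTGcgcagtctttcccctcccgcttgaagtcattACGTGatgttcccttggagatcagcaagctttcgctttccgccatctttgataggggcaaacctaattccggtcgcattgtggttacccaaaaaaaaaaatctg
P4ha2, chr11:54100674-54100973, plus strand: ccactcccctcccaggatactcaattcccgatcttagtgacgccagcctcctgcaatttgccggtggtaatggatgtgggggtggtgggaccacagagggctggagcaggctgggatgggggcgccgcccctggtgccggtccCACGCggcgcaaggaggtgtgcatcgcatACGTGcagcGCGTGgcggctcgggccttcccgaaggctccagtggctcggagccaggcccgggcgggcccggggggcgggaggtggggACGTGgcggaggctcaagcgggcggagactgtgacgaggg
P4ha3, chr7:100285270-100285569, plus strand: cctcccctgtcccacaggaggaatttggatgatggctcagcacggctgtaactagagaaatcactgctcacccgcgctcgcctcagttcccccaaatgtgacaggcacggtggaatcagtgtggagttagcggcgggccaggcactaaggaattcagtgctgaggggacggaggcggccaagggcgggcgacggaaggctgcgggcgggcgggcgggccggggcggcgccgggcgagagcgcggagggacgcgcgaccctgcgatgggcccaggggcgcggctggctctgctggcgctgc

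The core occurred 3 times in the window of *P4ha1*, 2 times in that of *Plod1*, 4 times in that of *Plod3*, 4 times in that of *P4ha2* and 0 times in that of *P4ha3*. Of the 10 genes, 8 had a window, and 6 of these held at least 1 core; *Serpinh1* and *Pcolce* held 1 each and *Adamts2* 0. Among all 32851 promoter windows of the same length, 43.8% held at least 1. These were not matched for base content, and the GC box GGGCGG was likewise found in 7 of the 8 windows, against 35.7% of all. Such matches describe the letters of the windows, and binding at them was not measured.

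The RNA of the prolyl 4-hydroxylase alpha subunits was compared between the genotypes, and none of the 3 differed beyond the spread between libraries. Their protein and the hydroxylation of proline were not measured. *P4ha1* (ENSMUSG00000019916, chromosome 10, 59323296 to 59373304, plus strand, GRCm38), which encodes the widely used subunit, had 20452, 17529.5 and 24265 normalised reads in WT 1 to 3 and 24209.9, 15629 and 23175 in CharmeKO 1 to 3. The libraries numbered 2 were the lowest of their group in both genotypes, and the groups overlapped. The group levels were 20749 ± 3377 and 21005 ± 4684 (mean ± SD, n = 3), and the log2 fold change on log2(value + 1) was 0.0038 (SE 0.252, 95% interval -0.60 to 0.61, limma adjusted p = 0.9999).

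*P4ha2* (ENSMUSG00000018906, chromosome 11, 54100095 to 54131665, plus strand), the isoform prominent in cartilage and bone, had 3760.0, 4807 and 7878 normalised reads in WT and 4655, 5089.6 and 2642 in CharmeKO. It was highest in WT 3 and lowest in CharmeKO 3, the 2 libraries that share a number, while the other 4 lay between 3760.0 and 5089.6. Its log2 fold change was the largest of the 10 genes in size, -0.40 (SE 0.361, interval -1.26 to 0.47, limma adjusted p = 0.9999). It rested on the libraries numbered 3: the log2 difference between CharmeKO and WT was 0.31 for number 1, 0.082 for number 2 and -1.58 for number 3, and the fold change was -0.098 without WT 3 and -0.10 without CharmeKO 3.

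*P4ha3* (ENSMUSG00000051048, chromosome 7, 100285520 to 100319699, plus strand), the third alpha subunit described in mammals, had 681, 2409 and 983 normalised reads in WT and 677, 2058 and 849 in CharmeKO. The libraries numbered 2 stood well above the other 4 in both genotypes. The replicate number took 98.5% of its variance on the log2 scale and genotype took 1.03%. Its log2 fold change of -0.15 had the widest interval of the 10 genes, -1.56 to 1.26 (SE 0.588, limma adjusted p = 0.9999), although it was lower in CharmeKO in all 3 same-numbered pairs, with log2 differences of -0.0077, -0.23 and -0.21.

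As shares of the 3 subunits per kilobase, *P4ha1* made up 72.1% to 89.0% of the family in the 6 libraries. *P4ha2* made up 6.69% to 16.9%, and *P4ha3* 3.15% to 13.2%. The share of *P4ha3* was 13.2% in WT 2 and 12.5% in CharmeKO 2 and at most 4.28% in the other 4 libraries. The log2 ratio of *P4ha2* to *P4ha1* within a library was -1.98 ± 0.421 in WT and -2.38 ± 0.757 in CharmeKO (n = 3), a difference of -0.40 (p = 0.7 by an exact two-sided permutation test, p = 1 adjusted over 3 ratios, smallest possible p 0.1) that did not exceed the spread. Without CharmeKO 3 it was -0.021.

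**Figure D2:**
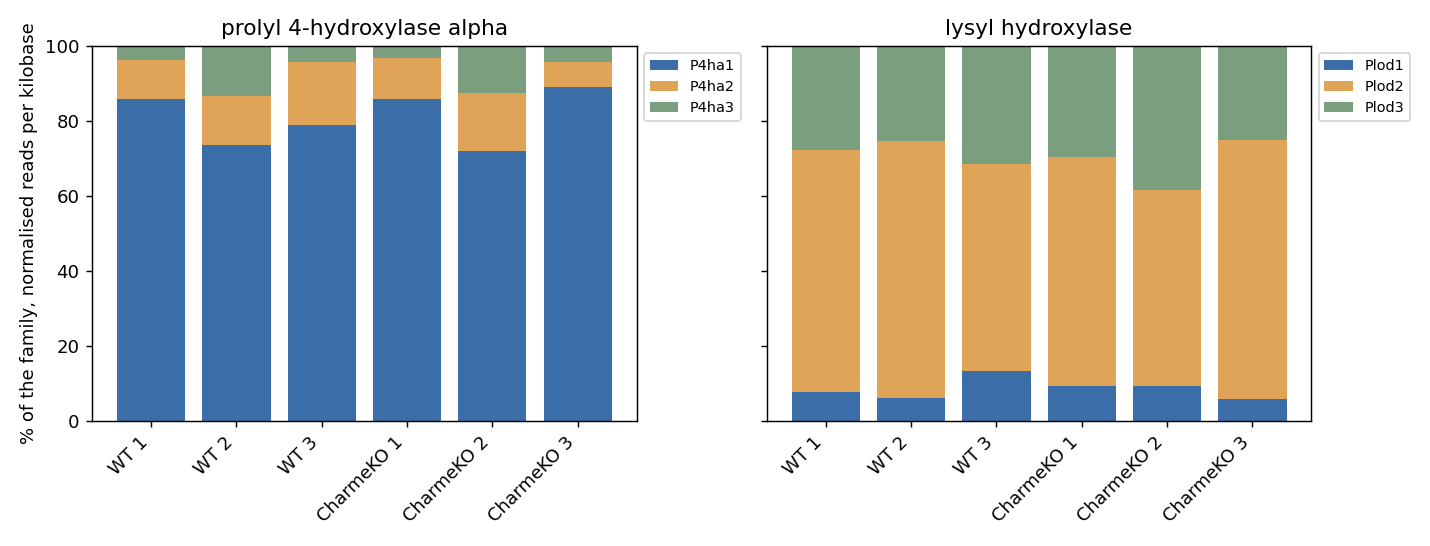
Share of each gene in its family (percent of normalised reads per kilobase, y axis) in the 6 libraries (x axis), with prolyl 4-hydroxylase alpha subunits on the left and lysyl hydroxylases on the right. *P4ha1* and *Plod2* take the largest share in each library, and *P4ha3* is larger in WT 2 and CharmeKO 2, at 13.2% and 12.5%, than in the other libraries.

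The lysyl hydroxylases were next. *Plod1* (ENSMUSG00000019055, chromosome 4, 147909753 to 147936767, minus strand) encodes the enzyme that hydroxylates lysines of the triple helix. It had 3899, 2928 and 6059 normalised reads in WT and 4429, 3075 and 3407 in CharmeKO, with WT 3 apart from the other 5 libraries. Its log2 fold change was -0.19 (SE 0.298, interval -0.91 to 0.52, limma adjusted p = 0.9999) and was 0.089 without WT 3.

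*Plod2* (ENSMUSG00000032374, chromosome 9, 92542223 to 92608428, plus strand) encodes the enzyme for telopeptide lysines, the modification behind the crosslinks typical of stiff and fibrotic tissue. It had 25675, 25988 and 19815 normalised reads in WT and 23509, 13657 and 31394 in CharmeKO. The CharmeKO libraries spanned the whole range, with CharmeKO 2 the lowest and CharmeKO 3 the highest of all 6. The log2 fold change was -0.13 (SE 0.338, interval -0.94 to 0.68, limma adjusted p = 0.9999), and it was 0.20 without CharmeKO 2 and -0.40 without CharmeKO 3. The same-numbered differences were -0.13, -0.93 and 0.66.

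*Plod3* (ENSMUSG00000004846, chromosome 5, 136987019 to 136996648, plus strand), whose enzyme also adds sugars to hydroxylysine, had 9243, 8015 and 9507 normalised reads in WT and 9572, 8395 and 9611 in CharmeKO. Its highest library was 1.20 times its lowest, the narrowest range of the 10 genes, and its SD of 0.112 on the log2 scale over the 6 libraries was at percentile 3.35 of all genes tested. The log2 fold change was 0.044 (SE 0.160, interval -0.34 to 0.43, limma adjusted p = 0.9999), which as a ratio of CharmeKO to WT is an interval of 0.790 to 1.35. It was higher in CharmeKO in all 3 same-numbered pairs, by 0.050, 0.067 and 0.016.

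As shares of the family per kilobase, *Plod2* made up 52.3% to 68.9%, *Plod3* 25.2% to 38.3% and *Plod1* 5.96% to 13.4%. The log2 ratio of *Plod2* to *Plod1* was 2.53 ± 0.739 in WT and 2.59 ± 0.549 in CharmeKO (n = 3, two-sided exact permutation p = 0.9, adjusted p = 1). Its difference was -0.31 for number 1, -0.999 for number 2 and 1.49 for number 3, so the pairs went in opposite directions.

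HSP47 was examined as the chaperone that follows hydroxylation. *Serpinh1* (ENSMUSG00000070436, chromosome 7, 99345376 to 99353239, minus strand) had 71503, 69199 and 92034 normalised reads in WT and 78027, 72894 and 118349 in CharmeKO. The libraries numbered 3 were the highest of each genotype and CharmeKO 3 the highest of all. The groups overlapped, with 77578 ± 12572 in WT and 89757 ± 24894 in CharmeKO (n = 3) and a log2 fold change of 0.19 (SE 0.326, interval -0.59 to 0.97, limma adjusted p = 0.9999). It was higher in CharmeKO in all 3 same-numbered pairs, by 0.13, 0.075 and 0.36, and the fold change was -0.029 without CharmeKO 3. Against *Col1a1*, the main fibrillar chain that it binds, its log2 ratio was -2.46, -3.56 and -2.70 in WT and -2.87, -3.40 and -2.38 in CharmeKO. The ratio was lowest in the libraries numbered 2 of both genotypes, and its mean differed by 0.027 between the genotypes (two-sided exact permutation p = 1, adjusted p = 1).

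The propeptide-processing genes act outside the cell. *Adamts2* (ENSMUSG00000036545, chromosome 11, 50602084 to 50807573, plus strand), whose protease removes the N-propeptide, had 14359, 22228 and 10786 normalised reads in WT and 15598, 21899 and 17329.7 in CharmeKO. It was highest in the libraries numbered 2 and lowest in WT 3. *Adamts2* had a log2 fold change of 0.26 (SE 0.306, interval -0.47 to 0.99, limma adjusted p = 0.9999), which was 0.018 without WT 3 and 0.54 without WT 2.

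*Bmp1* (ENSMUSG00000022098, chromosome 14, 70474558 to 70520234, minus strand), whose tolloid-type protease removes the C-propeptide, had 13236, 15404 and 16643 normalised reads in WT and 13491, 16752 and 23936 in CharmeKO. CharmeKO 3 stood above the other 5 libraries. CharmeKO differed from WT by a log2 fold change of 0.22 (SE 0.257, interval -0.39 to 0.84, limma adjusted p = 0.9999). *Bmp1* was higher in CharmeKO in all 3 same-numbered pairs, by 0.028, 0.12 and 0.52, and its fold change was 0.00064 without CharmeKO 3.

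*Pcolce* (ENSMUSG00000029718, chromosome 5, 137605103 to 137613784, minus strand) encodes a glycoprotein that speeds cleavage by *Bmp1*. An annotated gene on the same strand, *Fbxo24*, overlaps it, so reads of the shared stretch cannot be assigned with certainty. *Pcolce* had 16567, 27861 and 24143 normalised reads in WT and 21525, 39435 and 18069.8 in CharmeKO, highest in the libraries numbered 2 of each genotype. On the log2 scale the fold change was 0.15 (SE 0.362, interval -0.71 to 1.02, limma adjusted p = 0.9999), and it was -0.18 without CharmeKO 2.

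The 10 genes were then set beside all genes. With limma, 0 of the 10 had an adjusted p under 0.05, as did 0% of all 15948 genes tested. At an unadjusted p under 0.05 there were 0 of the 10 with limma (0.897% of all genes), 0 with edgeR's quasi-likelihood test (0.991%), and 0 with the replicate number as a block in limma (5.37%). DESeq2 called 0 of the 10, where it called 0.0502% of all genes, and 0 with the replicate block, where it called 0.401%. The values of WT and CharmeKO overlapped for all 10, against 4.11% of all genes without overlap. The log2 fold change was negative for 4 of the 10 and positive for 6, with a median of 0.024 against 0.0022 over all genes. It was under 0.5 in size for all 10, as it was for 83.6% of all genes, and reached 1 in size for 0 of the 10, against 5.04% of all genes. In the same-numbered pairs, *Plod3*, *Serpinh1* and *Bmp1* were higher in CharmeKO in all 3 (16.4% of all genes) and *P4ha3* was lower in all 3 (14% of all genes). Without the block, the 95% intervals reached a log2 size of 1 for *P4ha2*, *P4ha3* and *Pcolce*. With the replicate block they were -0.43 to 0.13 for *P4ha3* and -0.43 to 0.74 for *Pcolce*, and among the 10 genes that of *P4ha2* alone, -1.48 to 0.69, still reached that size.

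**Figure D3:**
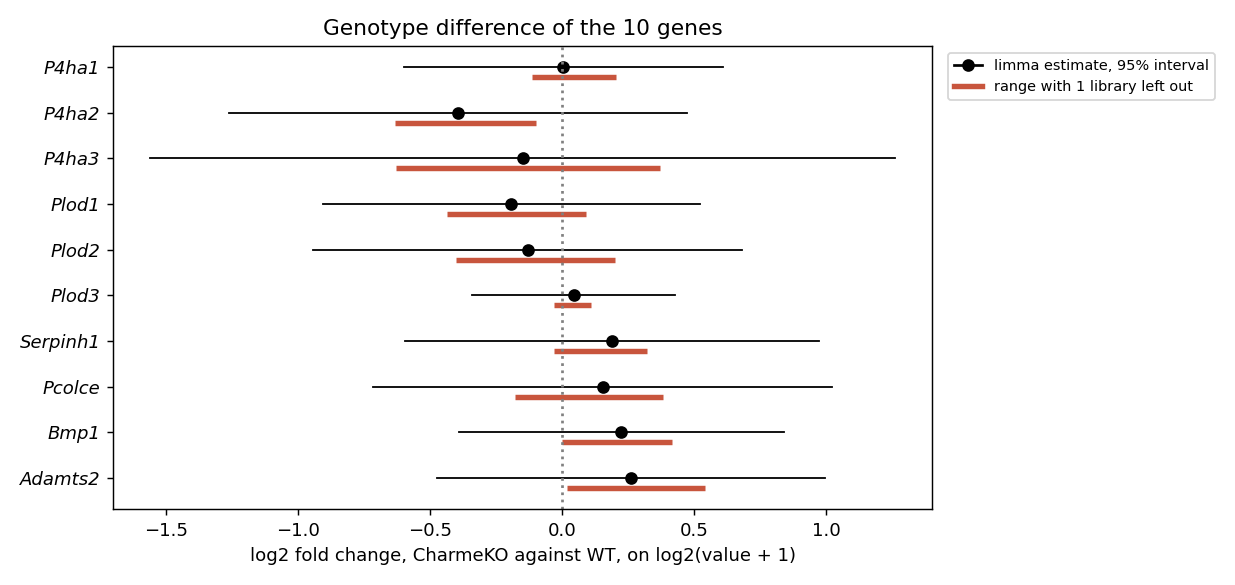
Log2 fold change of CharmeKO against WT (x axis) for the 10 genes (y axis), with the limma estimate and its 95% interval in black and the range over fits without 1 library in red. Each interval includes 0, and that of *Plod3* is the narrowest, -0.34 to 0.43.

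The spread between libraries took different forms. The replicate number accounted for 98.5% of the variance of *P4ha3*, 94.2% of *Plod3*, 87.1% of *P4ha1* and 82.6% of *Serpinh1*. It accounted for 72.5% of *Pcolce*, 69.8% of *Bmp1* and 69.0% of *Adamts2*, near the 67.7% of all genes. It was lower for *Plod1* (52.1%) and lowest for *Plod2* (23.9%) and *P4ha2* (4.32%), in which 73.1% and 78.3% were left over after number and genotype. Genotype took 17.3% of the variance of *P4ha2*, the highest share of the 10, and 0.0062% of that of *P4ha1*. Which property of the cultures the number stands for is not given by the labels.

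**Figure D4:**
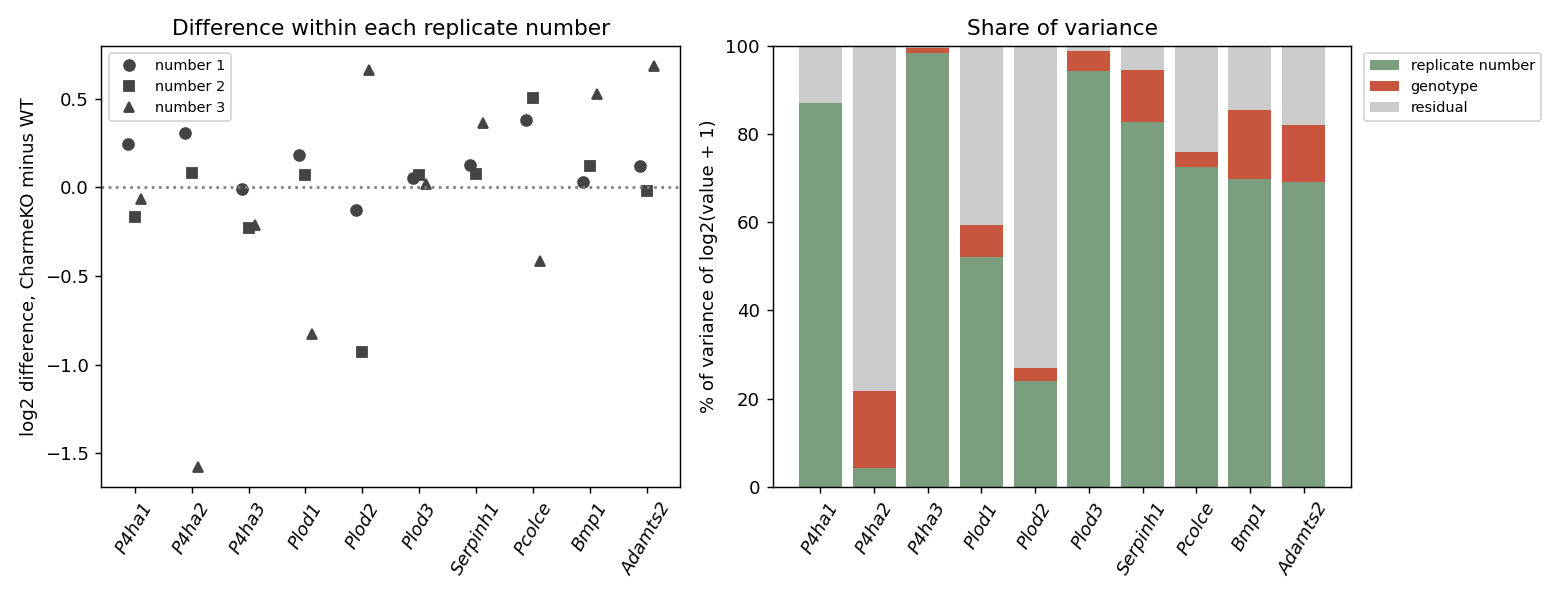
Left, log2 difference between CharmeKO and WT (y axis) within each replicate number for the 10 genes, and right, percent of the variance of log2(value + 1) by replicate number, genotype and residual. The 3 differences of *Plod3* lie between 0.016 and 0.067, while those of *P4ha2* lie between -1.58 and 0.31.

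The genes did not rise and fall as 1 block across the 6 libraries. Of the 45 pairs of genes, 21 had a positive and 24 a negative Pearson correlation of log2 levels. *P4ha1*, *Plod1* and *Plod3* went together (r = 0.90 for *P4ha1* with *Plod3*, 0.76 for *P4ha1* with *Plod1*), as did *Serpinh1* with *Bmp1* (0.85) and *P4ha3* with *Pcolce* (0.83) and *Adamts2* (0.71). *Adamts2* went in the opposite direction to *Plod1* (r = -0.96), *P4ha1* (-0.79) and *Plod3* (-0.77), while its r was -0.38 with *P4ha2* and -0.12 with *Plod2*. These values describe 6 libraries that share replicate numbers and were scaled by the same size factors.

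A list of 16 genes induced by hypoxia, which holds many glycolytic enzymes, was summed in each library for comparison. The sum was 225971, 127953 and 295566 normalised reads in WT and 271496, 123677 and 178819 in CharmeKO, lowest in the libraries numbered 2. Across the 6 libraries it correlated with *Plod1* (r = 0.92), *P4ha1* (0.89) and *Plod3* (0.85), and inversely with *Adamts2* (-0.93) and *P4ha3* (-0.84). The other known hypoxia targets of the group, *P4ha2* and *Plod2*, gave r = 0.27 and 0.22. The sum is weighted to abundant glycolytic genes, led in WT 1 by *Eno1* (62999), *Aldoa* (52197), *Ldha* (40932) and *Pgk1* (23416). *Vegfa*, also on the list, ranged from 13113 to 15635 over the 6 libraries. These r therefore need not hold for each gene of the list. The libraries also share replicate numbers, which took 98.5% of the variance of *P4ha3*, 94.2% of *Plod3*, 87.1% of *P4ha1*, 69.0% of *Adamts2* and 52.1% of *Plod1*. A gene set apart only in the libraries numbered 2 could thus reach a large r. The share of all genes with r of this size was not computed. Between the genotypes, 14 of the 16 genes had a negative log2 fold change and 2 a positive one. The median was -0.33, with 0 genes past the adjusted threshold. Of all 15948 genes tested, 7914 had a negative log2 fold change. The median difference of the list was 0.31 for number 1, -0.25 for number 2 and -0.94 for number 3. In all 3 same-numbered pairs, 0 of the 16 were lower in CharmeKO. The 3 genes of the list with the lowest p were *Ndrg1* (-0.60, SE 0.469), *Hk2* (-0.50, SE 0.460) and *Egln1* (-0.35, SE 0.326). They are a stress-induced gene, a hexokinase and an oxygen-sensing prolyl hydroxylase of the hypoxia-inducible factors.

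**Figure D5:**
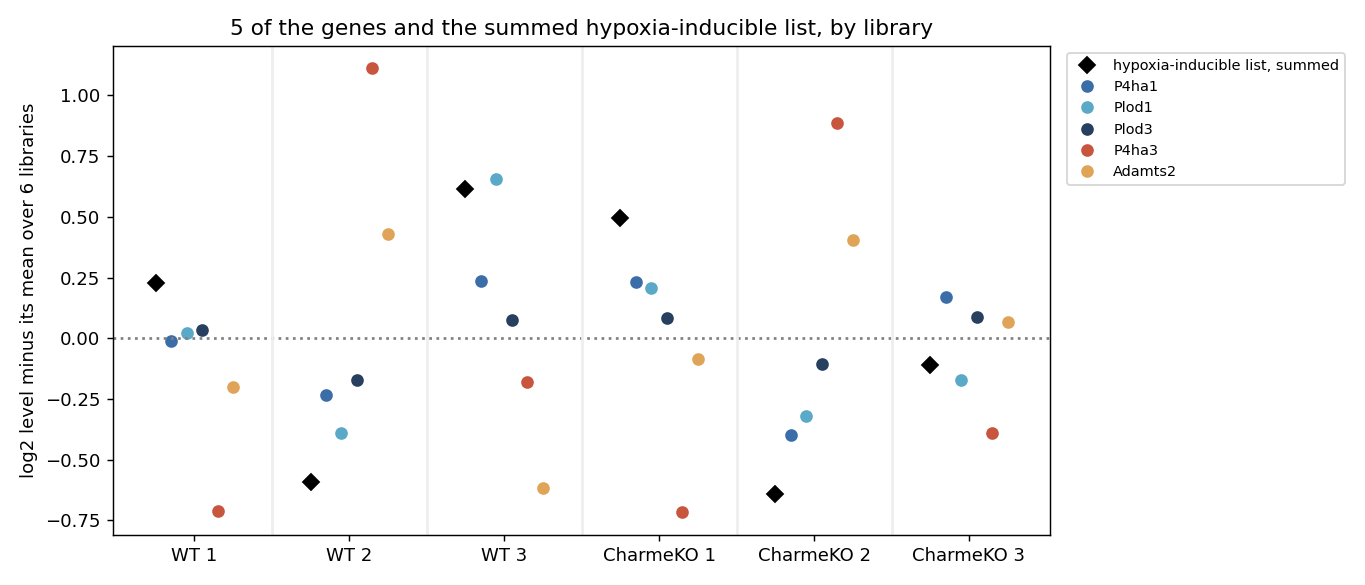
Log2 level minus its mean over the 6 libraries (y axis) in each library (x axis) for 5 of the genes and for the summed hypoxia-inducible list. In WT 2 and CharmeKO 2 the list, *P4ha1*, *Plod1* and *Plod3* lie below 0 and *P4ha3* and *Adamts2* above it.

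The partners of these genes, from 4 lists of 30 genes of the same pathway, were read in the same fit. Of the 26 tested, 11 had a negative and 15 a positive log2 fold change, with a median of 0.055 and 0 past the adjusted threshold with limma, and 24 of 26 were under 0.5 in size. Around the hydroxylases, *P4hb*, the beta subunit of prolyl 4-hydroxylase, had 63893, 51871 and 56428 normalised reads in WT and 78909, 70021 and 60694 in CharmeKO. It was higher in CharmeKO in all 3 same-numbered pairs, and its log2 fold change was 0.28 (SE 0.259). *Crtap*, a part of the prolyl 3-hydroxylation complex, was at 0.26 (SE 0.239), and *P3h2*, a prolyl 3-hydroxylase with 16.0 to 47.2 normalised reads, at 0.35 (SE 0.556).

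Among the folding genes, the fold changes that were largest in size were those of *Tmem38b*, an endoplasmic reticulum cation channel (0.32, SE 0.333), *Fkbp7*, a prolyl isomerase (0.27, SE 0.275), and *Fkbp10*, a prolyl isomerase that acts with HSP47 and *Plod2* (-0.19, SE 0.303). Among the export genes they were those of the COPII coat components *Sec23a* (-0.37, SE 0.290) and *Sec24d* (-0.21, SE 0.164) and of *Mia3*, the receptor that loads procollagen into carriers (0.060, SE 0.152). With the replicate block in limma, the unadjusted p fell under 0.05 for *Fkbp7* (0.0489), *Sec23a* (0.0241) and *Pcolce2* (0.0178), that is, for 3 of the 26 beside 5.37% of all genes, each with an adjusted p of 0.7997.

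The relatives of the propeptide proteinases varied more. *Tll1*, a tolloid-like C-proteinase related to *Bmp1*, had 3396, 4201 and 4804 normalised reads in WT and 1927, 416 and 4085 in CharmeKO. CharmeKO 2 lay far below the other 5 libraries, and the groups overlapped. Its log2 fold change of -1.46 (SE 0.776, interval -3.32 to 0.40, limma adjusted p = 0.9999) was -0.54 without CharmeKO 2. *Pcolce2*, another enhancer of the C-proteinase, had 2852, 138 and 309.8 normalised reads in WT and 3827, 288 and 427 in CharmeKO, with both libraries numbered 1 above the rest, and its log2 fold change was 0.65 (SE 1.37). *Adamts3*, an N-proteinase related to *Adamts2*, had 27.6 to 168 normalised reads and a log2 fold change of 0.33 (SE 0.856). *Tll2* was at 0 reads in WT 1 and WT 2 and *Mep1a* in CharmeKO 3, and neither reached 10 normalised reads in any library.

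Of the substrates, 0 of 7 fibrillar collagen chains passed the adjusted threshold, and the median log2 fold change was -0.22. It was positive for *Col1a2* (0.25, SE 0.690), *Col1a1* (0.16, SE 0.655) and *Col3a1* (0.12, SE 0.627), and negative for the chains of types V and XI. Among these, named after their values were seen, *Col11a1* was at -0.98 (SE 0.402, interval -1.94 to -0.017), the 1 chain with an unadjusted p under 0.05 with limma (0.0471, adjusted p = 0.9999), and it had an unadjusted p of 0.0951 with the replicate block. *Col5a1* was at -0.49 (SE 0.370), *Col5a3* at -0.28 (SE 0.271) and *Col5a2* at -0.22 (SE 0.456). The summed level of the 7 chains was 1052649 to 2264194 normalised reads in WT and 1472838 to 1806512 in CharmeKO. Across the 6 libraries it correlated with *P4ha3* (r = 0.73) and *Adamts2* (0.63) and inversely with *Plod3* (-0.56) and *Plod1* (-0.51), and r was 0.12 for *Serpinh1*, 0.062 for *Plod2* and -0.025 for *P4ha2*. These r too come from libraries that share replicate numbers, and the share of all genes with such r was not computed.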

How the data were processed

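RNA-seq libraries of cultured CFs, 3 WT and 3 CharmeKO, were grouped and numbered by their titles. Alignment and strand-specific gene counting (reverse setting) were done by the authors in STAR, followed by removal of sparsely covered genes and DESeq2 scaling. What they deposited is thus a normalised read signal: gene reads divided by a size factor per library. The assembly is given as GRCm39 by the study, beside an Ensembl annotation, and the submitters' processing notes also list GRCh38. Coordinates and exon lengths printed here come from GENCODE M21 on GRCm38, matched by gene ID (99.7% of IDs), and promoters from RefSeq. Counting by strand separates antisense genes.

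Within a library, dividing by the value of 1 read gave whole reads for 100% of the 116676 values (tolerance 1e-06), for 38330019 to 46797446 per library. Genotypes were compared with limma (trend option, log2(value + 1), no covariate) for 15948 genes that reached 10 reads in 2 or more libraries. The test was two-sided, with Benjamini-Hochberg adjustment over all genes tested and a threshold of 0.05. The scale understates changes of genes with few reads. Standard errors and 95% intervals are those of limma. edgeR's quasi-likelihood test and DESeq2 on the recovered reads were alternatives, as were a replicate block, other scalings, pseudocounts and filters, and leaving out each library. Ratios were compared by an exact two-sided permutation test, which with 3 libraries a group cannot go below p = 0.1, and adjusted over the 3 ratios. Scripts were tested on simulated data. R 4.3.3, limma 3.58.1, edgeR 4.0.16, DESeq2 1.42.0, Python 3.11.15 and matplotlib 3.10.9 were used.

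WT and CharmeKO libraries of the same number were treated as pairs. The basis was how their deviations from their groups correlated over genes: r was 0.762 (number 1), 0.514 (number 2) and 0.217 (number 3). A pair had to exceed r = 0.1. CharmeKO 3, however, correlated as closely with WT 2 (r = 0.222), which also passes this cut. The other differently numbered combinations gave negative r. The correlations therefore do not single out WT 3 as the partner of CharmeKO 3, and that pair rests on the label. Results by pair or with the replicate block depend on it. Counting error alone is small at this depth for the 10 genes, and limits from it leave out amplification, as reads carried no molecular identifiers. It is larger for rows with few reads, such as CUFF405, *P3h2*, *Adamts3*, *Tll2* and *Mep1a*. The 10 genes and the lists were chosen with earlier results of these data known. Genes named beside the 10 followed a rule: up to 3 of each partner list by size of fold change or at 0 reads in a library, *Col1a1*, *Col1a2* and *Col3a1*, and the 3 hypoxia-inducible genes with the lowest p. The markers and overlapping genes named were chosen after their values were seen, as were *Eno1*, *Aldoa*, *Ldha*, *Pgk1* and *Vegfa*.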

Additional observations from a re-analysis of the deposited data

How the results depend on the processing

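Of the 10 genes, 0 were called in any of the 17 alternatives tried. Over all genes, limma called 0, and 0 to 0 with single libraries left out. DESeq2's Wald test called 8 genes, or 64 once a replicate block was added; the cause was not tested. The replicate block changed no call for the 10 genes.

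In the 11 alternatives that kept all libraries, 9 of the 10 genes kept the sign of their fold change, and *P4ha1* was at -0.00066 with DESeq2 and the replicate block. With plain library sizes the median of all genes moved to 0.036. With single libraries left out, *Adamts2* (0.018 to 0.54), *Bmp1* (0.00064 to 0.41) and *P4ha2* (-0.63 to -0.098) kept their sign. The sign changed for *P4ha1* (-0.11 to 0.20), *P4ha3* (-0.63 to 0.37), *Plod1* (-0.44 to 0.089), *Plod2* (-0.40 to 0.20), *Plod3* (-0.031 to 0.11), *Serpinh1* (-0.029 to 0.32) and *Pcolce* (-0.18 to 0.38). The median over the 10 genes ranged from -0.031 to 0.12. The difference in log2 ratio ranged from -0.35 to 0.37 for *Plod2* to *Plod1*, from -0.78 to -0.021 for *P4ha2* to *P4ha1* and from -0.30 to 0.29 for *Serpinh1* to *Col1a1*.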
